A study of Mus musculus with 13 samples.

Results

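Levels of 6 genes, Pcp4, Trpm1, Fcrl6, Lypd1, Vwa2 and Fxyd7, were followed through whole lower incisors pulled from male mice at postnatal day 5. They are 6 of the 34709 genes in the count table, selected on their low CPM in VDRgem against control incisors, so those values are a description and carry no test. All 6 passed the filter on low counts, which kept 17837 genes, but a gene can pass it through the group where it is high. There were 3 VDRgem, 5 VDR-null and 5 control libraries, the controls being described as wild type. The library titles read lower incisors, so a library may hold several teeth. VDRgem mice carry a mutated vitamin D receptor that, by background knowledge, no longer answers the natural hormone but can be switched on by synthetic gemini ligands, whereas VDR-null mice have no functional receptor. No strain, allele detail or diet is given in the sources used here, and the teeth were pulled and frozen whole. The submitters call the incisors independent without naming animals, so a p-value here reflects how much these libraries vary, which may be partly technical. Each gene was set beside Fgf3 and Sfrp5 in the same library.

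The mouse incisor grows throughout life from its apical end, where the cervical loop epithelium holds stem cells and the facing dental papilla mesenchyme holds dividing progenitors. Sfrp5, a secreted Wnt antagonist, is known as a marker of the cervical loop epithelium, and Fgf3, a fibroblast growth factor, of the apical papilla. The 6 genes belong to unrelated families. Pcp4 is a small protein that speeds calcium exchange on calmodulin, Trpm1 a cation channel known from retinal ON-bipolar cells and melanocytes, and Fcrl6 an Fc receptor-like surface protein known, in human, from cytotoxic lymphocytes. Lypd1 is a Ly6-type membrane-anchored protein that binds nicotinic acetylcholine receptors, Vwa2 (also called AMACO) a basement-membrane protein with von Willebrand A domains, and Fxyd7 a small regulator of the sodium pump, known from brain.

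Total counts ran from 20405188 in control 2 to 87783466 in VDRgem 3. Levels are CPM, a gene's count divided by the library total and scaled by TMM factors. Libraries VDR-null 2 and VDR-null 3 stood apart from the other VDR-null libraries for several of the 6 genes, so results that rest on them are given with and without them, a step chosen after the values were seen. VDRgem 1 and VDRgem 2 carried more skin-type keratin message, their 14 keratinocyte markers summing to 17200 and 3960 CPM, while VDRgem 3 had 316 CPM and controls had 27.7 to 546 CPM. Vdr itself was read at 107 to 205 CPM in VDRgem, 204 to 281 CPM in VDR-null and 142 to 180 CPM in controls, and a count over the whole gene does not check either mutant label.

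The name "nearly lost" held for 4 of the 6 genes. Mean levels in VDRgem were 5.02% of the control mean for Pcp4, 7.77% for Trpm1, 4.42% for Fcrl6 and 10.3% for Lypd1. Vwa2 kept 25.7% and Fxyd7 45.7%. Of the markers, Sfrp5, at 8.0%, lay in the range of the first 4 genes, and Fgf3, at 12.2%, lay above it. These libraries are bulk tissue, in which fewer cells of a type and less RNA per cell cannot be told apart.

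**Figure D1:**
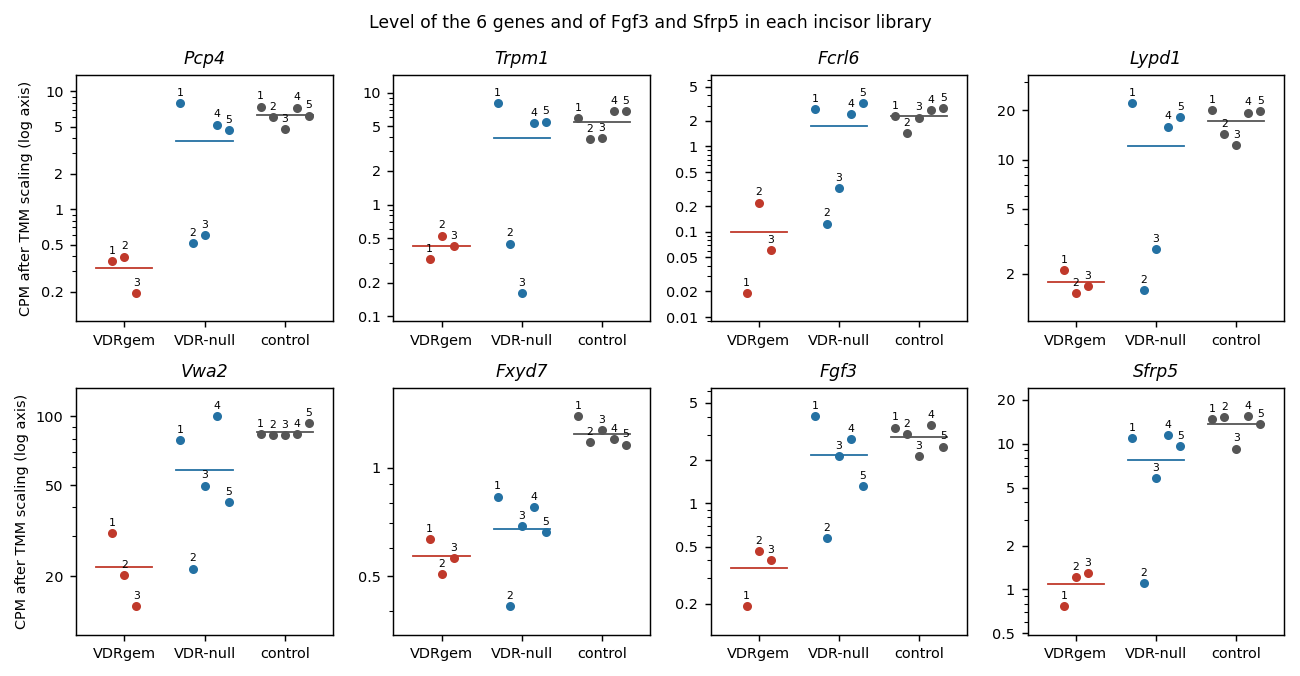
Level of the 6 genes, Fgf3 and Sfrp5 in each library, as CPM after TMM scaling on a log axis. Points are libraries with their replicate number (3 VDRgem, 5 VDR-null, 5 control) and lines are group means; VDR-null 2 and 3 lie beside VDRgem for Pcp4, Trpm1, Fcrl6 and Lypd1.

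Pcp4 (ENSMUSG00000090223, chr16:96467606-96525793 of mm10, plus strand) had 0.364, 0.396 and 0.195 CPM in VDRgem libraries 1 to 3. In VDR-null libraries 1 to 5 it had 7.95, 0.52, 0.606, 5.22 and 4.71 CPM, and in control libraries 1 to 5 it had 7.42, 6.06, 4.78, 7.27 and 6.22 CPM. The VDRgem libraries held 16 to 19 reads of the gene each, and no VDRgem value came near a control. The VDR-null libraries split, with 2 and 3 near the VDRgem level and 1 above every control. The fitted log2 fold change was -4.35 (SE 0.83) for VDRgem over control, a value that 9 of the 17837 tested genes reached or passed. GENCODE also lists an Igsf5 entry that overlaps Pcp4 on the same strand, which was not analysed here.

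Trpm1 (ENSMUSG00000030523, chr7:64153835-64269775, plus strand) had 0.326, 0.528 and 0.427 CPM in VDRgem. The VDR-null values were 8.08, 0.448, 0.162, 5.32 and 5.5 CPM, and the controls had 5.97, 3.83, 3.95, 6.87 and 6.86 CPM. The lowest value of all 13 was VDR-null 3, with 4 reads, below each VDRgem library, while VDR-null 1 was the highest. The fitted difference of VDRgem from control was -3.69 in log2 units (SE 0.93), reached or passed by 16 tested genes. Trpm1 is known as a host of a microRNA gene, Mir211, which poly-A libraries do not measure.

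Fcrl6 (ENSMUSG00000070504, chr1:172596642-172602551, minus strand) was counted in VDRgem at 1, 10 and 5 reads, or 0.0192, 0.22 and 0.061 CPM. The VDR-null values were 2.72, 0.125, 0.323, 2.39 and 3.23 CPM, and the controls had 2.26, 1.42, 2.18, 2.66 and 2.81 CPM. The single read in VDRgem 1 equals 0.847% of the control mean, with an exact Poisson 95% interval of 0.0214% to 4.72% that covers counting error only. The log2 fold change, -4.58 (SE 0.99), was the lowest of the 6, but its size depends on these few reads. Again VDR-null 2 and 3 lay with VDRgem, and the other VDR-null libraries lay among or above the controls.

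Lypd1 (ENSMUSG00000026344, chr1:125867622-125913101, minus strand) had 2.11, 1.52 and 1.68 CPM in VDRgem. It had 22.2, 1.58, 2.83, 15.9 and 18.1 CPM in VDR-null and 20.1, 14.3, 12.2, 19.4 and 19.7 CPM in controls. It is the best counted of these 4 genes, with 69 to 138 reads per VDRgem library, and it showed the same split of the VDR-null libraries. The log2 fold change of VDRgem over control was -3.27 (SE 0.72). Its gene overlaps Gpr39 on the other strand, which held 0 to 9 reads per library.

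Vwa2 (ENSMUSG00000025082, chr19:56874249-56912078, plus strand) had 30.8, 20.2 and 14.8 CPM in VDRgem, 78.5, 21.6, 49.8, 100 and 42.3 CPM in VDR-null, and 83.8, 83, 83.1, 83.5 and 93.4 CPM in controls. The controls were close together, and every VDRgem library lay below them without reaching the floor seen for the first 4 genes. The order inside VDR-null was another one: VDR-null 5, which had control-like Trpm1, Fcrl6 and Lypd1, was lower than VDR-null 3. The log2 fold change of VDRgem over control was -1.96 (SE 0.39), reached or passed by 83 tested genes.

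Fxyd7 (ENSMUSG00000036578, chr7:31042513-31051467, minus strand) had 0.633, 0.506 and 0.562 CPM in VDRgem. It had 0.831, 0.412, 0.687, 0.777 and 0.662 CPM in VDR-null and 1.39, 1.18, 1.27, 1.2 and 1.16 CPM in controls. Here all 8 mutant libraries lay below all 5 controls, and the VDRgem and VDR-null ranges overlapped. The log2 fold change was -1.12 (SE 0.23) for VDRgem over control, reached or passed by 369 tested genes.

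For comparison, Fgf3 had -3.02 (SE 0.54) and Sfrp5 -3.63 (SE 0.58) on the same log2 scale, lower in VDRgem than Vwa2 and Fxyd7. Over all tested genes, edgeR's quasi-likelihood test called 8.62% in VDRgem against control, with 3.82% lower and 4.8% higher, and every VDRgem library lay below every control for 10.3% of genes. All 6 chosen genes met both conditions, which their choice fixed. Each stayed lower in all 22 settings tried that could test it, which their choice favoured, so this too is a description. VDRgem 3, the VDRgem library with the least keratinocyte message, held the lowest VDRgem value of Pcp4 and Vwa2 and the middle value of the other 4 genes. Without VDRgem 1, whose removal left 66 genes called over the whole table, 1 of the 6 was still called.

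Per kilobase of exon, the 6 genes covered a wide range in controls. On the length-corrected TPM scale, computed from merged exon lengths, means were 87.2 ± 7.15 for Vwa2, 25.8 ± 5.66 for Pcp4, 10.2 ± 2.61 for Lypd1, 7.4 ± 0.739 for Fxyd7, 3.51 ± 0.924 for Fcrl6 and 1.56 ± 0.488 for Trpm1 (SD, n = 5 each). On this scale Sfrp5, at 29.9 ± 6.84 TPM, lay beside Pcp4 within their spread, and Fgf3, at 5.19 ± 1.3 TPM, lay between Fxyd7 and Fcrl6. The near-lost genes were therefore not the scarcest of the 6 as a group, since Pcp4 ranked second and Trpm1 last.

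The bases before the start sites are shown for the 3 near-lost genes whose RefSeq and GENCODE starts coincide, because they were low in the same libraries and a vitamin D receptor binds pairs of a short half-site. Each line gives the 250 bases upstream, in the direction of the gene, from RefSeq on GRCm38.p6, at chr16:96467356-96467605 (plus), chr7:64153585-64153834 (plus) and chr1:172602552-172602801 (minus). Capitals mark a half-site, searched on both strands in 3 spellings: the form AGGTCA, besides it the form AGTTCA, and as a further variant the form GGTTCA.
Pcp4: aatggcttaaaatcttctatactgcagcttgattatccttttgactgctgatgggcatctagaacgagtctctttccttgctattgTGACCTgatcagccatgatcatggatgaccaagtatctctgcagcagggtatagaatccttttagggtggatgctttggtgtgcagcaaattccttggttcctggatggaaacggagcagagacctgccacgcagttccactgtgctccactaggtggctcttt
Trpm1: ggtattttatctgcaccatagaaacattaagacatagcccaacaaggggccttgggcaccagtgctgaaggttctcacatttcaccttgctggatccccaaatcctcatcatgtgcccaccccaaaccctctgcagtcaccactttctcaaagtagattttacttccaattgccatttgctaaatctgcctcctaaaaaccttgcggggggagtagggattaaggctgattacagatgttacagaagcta
Fcrl6: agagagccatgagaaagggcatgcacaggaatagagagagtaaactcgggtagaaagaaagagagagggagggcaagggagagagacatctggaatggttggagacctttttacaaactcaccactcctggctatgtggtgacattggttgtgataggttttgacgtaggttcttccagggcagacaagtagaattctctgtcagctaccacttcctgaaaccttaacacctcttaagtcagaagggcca

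Pcp4 holds 1 half-site, AGGTCA on the other strand (read here as TGACCT), starting 164 bases before the start site, and the Trpm1 and Fcrl6 windows hold none. At least 1 of the 3 half-sites was found in 30.7% of the 32851 RefSeq windows of this length, and AGGTCA in 14.0%. The pair with NNN between its half-sites, the classical form of a vitamin D response element, was found in 8 windows, 0.0244%, none of them upstream of the 5 genes that had a window. The Lypd1 and Vwa2 windows held no half-site, and a second Trpm1 window, 31624 bases downstream of the first start, held AGGTCA. A match is a description of letters and not a binding site, and no match says nothing of the receptor.

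VDR-null incisors were not used to choose the genes, although the controls were. Of the 6 genes, Fxyd7 alone passed edgeR's test in VDR-null against control, where it was lower by a fitted -0.88 in log2 units (SE 0.20, adjusted p = 0.0486), with all 5 VDR-null libraries below all 5 controls. Over all tested genes 1.33% were called in that comparison, 0.656% lower, and every VDR-null library lay below every control for 3.18%. Fxyd7 averaged 0.674 ± 0.161 CPM in VDR-null and 1.24 ± 0.0925 CPM in control (SD, n = 5 each). The call was narrow: without VDR-null 2 and 3 the fold change was -0.70 (adjusted p = 0.0969), and leaving out single libraries moved the adjusted p between 0.0383 and 0.117.

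The other 5 genes did not pass, and their means hid the split of the VDR-null libraries. The fold changes of VDR-null over control were -0.72 (SE 0.55, adjusted p = 0.459) for Pcp4, -0.48 (SE 0.65, adjusted p = 0.702) for Trpm1, -0.36 (SE 0.62, adjusted p = 0.773) for Fcrl6 and -0.49 (SE 0.52, adjusted p = 0.61) for Lypd1. Vwa2 had -0.54 (SE 0.31, adjusted p = 0.313), with 4 of 5 VDR-null libraries below every control. Without VDR-null 2 and 3, Pcp4 had -0.08, Trpm1 0.20, Fcrl6 0.29, Lypd1 0.13 and Vwa2 -0.21, so the low VDR-null means of the near-lost genes came from those 2 libraries. Fgf3 (-0.40, SE 0.39) and Sfrp5 (-0.81, SE 0.42) did not pass either, with adjusted p = 0.574 and 0.262 in edgeR.

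In VDR-null 2, the near-lost genes and Sfrp5 stood at one level. Pcp4 was at 8.18% of the control mean, Trpm1 at 8.15%, Fcrl6 at 5.54%, Lypd1 at 9.2% and Sfrp5 at 8.15%, with Fgf3 at 19.8%, Vwa2 at 25.3% and Fxyd7 at 33.2%. VDR-null 3 differed: Pcp4 was at 9.54%, Trpm1 at 2.94%, Fcrl6 at 14.3% and Lypd1 at 16.5%, but Sfrp5 stood at 42.7%, Vwa2 at 58.4% and Fgf3 at 73.9%. In this single library Sfrp5 and Fgf3 were lowered less than the near-lost genes, and the reason was not tested. VDR-null 5 differed again, with Fgf3 at 45.7% and Vwa2 at 49.6%, while Sfrp5 was at 70.4%, Pcp4 was at 74.1% and Trpm1, Fcrl6 and Lypd1 reached the control mean or exceeded it. All 4 near-lost genes, but neither Vwa2 nor Fxyd7, were lower in VDR-null 2 and 3 than in the other 8 VDR-null and control libraries. This held for 5.12% of all tested genes. The 2 libraries were singled out on the levels of these same genes, so that share is a description and no test.

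**Figure D2:**
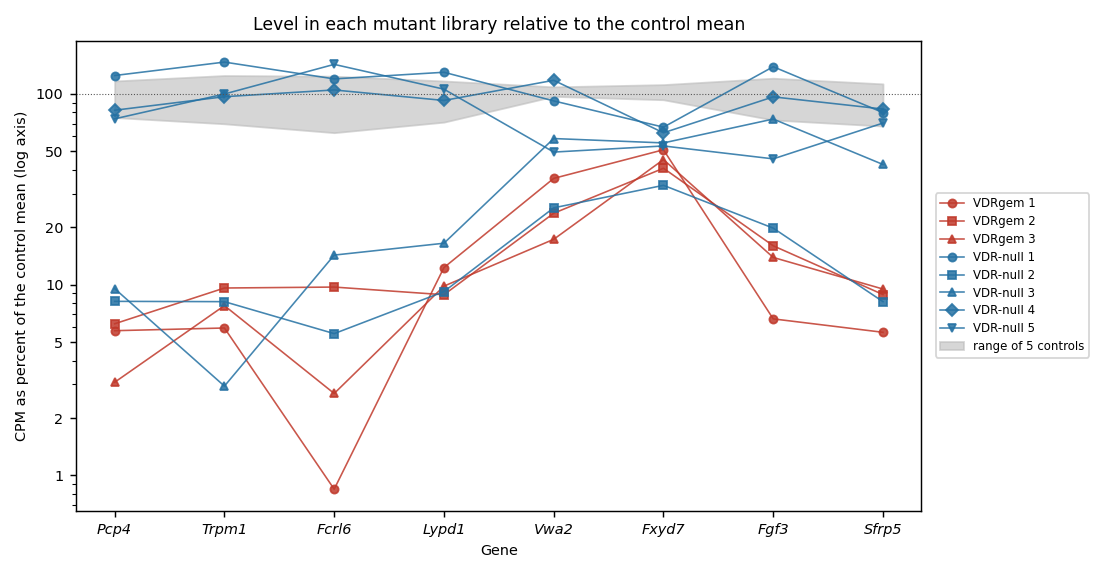
Level of each gene in each VDRgem (red) and VDR-null (blue) library as a percent of the control mean, on a log axis, with the range of the 5 controls in grey. VDR-null 2 follows the VDRgem libraries, and VDR-null 3 is low for the first 4 genes but at 42.7% for Sfrp5 and 73.9% for Fgf3.

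Counts of each gene per count of Sfrp5 in the same library need no scaling between libraries. For the near-lost genes this ratio put VDR-null 3, but not VDR-null 2, below every control. For Trpm1 the ratio was 0.425, 0.436 and 0.33 in VDRgem, 0.742, 0.403, 0.0278, 0.468 and 0.573 in VDR-null, and 0.407, 0.253, 0.426, 0.445 and 0.504 in controls. VDRgem and VDR-null 2 lay inside the control range, so Trpm1 and Sfrp5 were lower there by a like factor, and VDR-null 3 lay far below it, with an exact 95% interval of 0.00747 to 0.0727 from 4 and 144 reads. For Lypd1 the ratio was 2.75, 1.25 and 1.3 in VDRgem, 2.04, 1.42, 0.486, 1.39 and 1.89 in VDR-null, and 0.941 to 1.45 in controls. For Pcp4 it was 0.475, 0.327 and 0.151 in VDRgem, 0.73, 0.468, 0.104, 0.459 and 0.491 in VDR-null, and 0.4 to 0.516 in controls. VDRgem 3 and VDR-null 3 were the lowest for Pcp4, with exact intervals of 0.0833 to 0.257 and 0.0568 to 0.178. The exact intervals of these ratios cover counting error only and not the spread between libraries. In VDRgem the low level also chose the gene. For Fcrl6 the VDRgem ratios were 0.025, 0.182 and 0.0472, each from 1 to 10 reads, beside control ratios of 0.0938 to 0.235. VDR-null 3, at 0.0556 from 8 reads, was below every control, but its exact interval of 0.0235 to 0.112 covered the lowest control.

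Vwa2 and Fxyd7 were lowered less than Sfrp5 in VDRgem, so their ratios to Sfrp5 were raised. Vwa2 had 40.2, 16.7 and 11.4 counts per Sfrp5 count in VDRgem, against 5.41 to 8.98 in controls. Fxyd7 had 0.825, 0.418 and 0.434 in VDRgem, against 0.0778 to 0.137 in controls. All 3 VDRgem libraries lay above all 5 controls for both genes, as did VDR-null 2, at 19.4 for Vwa2 and 0.371 for Fxyd7. Per count of Fgf3 part of this changed, with control ranges in brackets. Vwa2 had 161, 43.8 and 36.8 in VDRgem (23.9 to 39.2) and 37.6 in VDR-null 2. In VDRgem Fxyd7 had 3.3, 1.1 and 1.39 (0.343 to 0.6) and Pcp4 1.9, 0.857 and 0.485 (2.0 to 2.51). Trpm1 had 1.7, 1.14 and 1.06 (1.27 to 2.77). Lypd1 had 11.0, 3.29 and 4.18 (4.7 to 7.97), and Fcrl6 0.1, 0.476 and 0.152 (0.469 to 1.14). All these ratios follow from levels that chose the genes and carry no test in VDRgem.

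**Figure D3:**
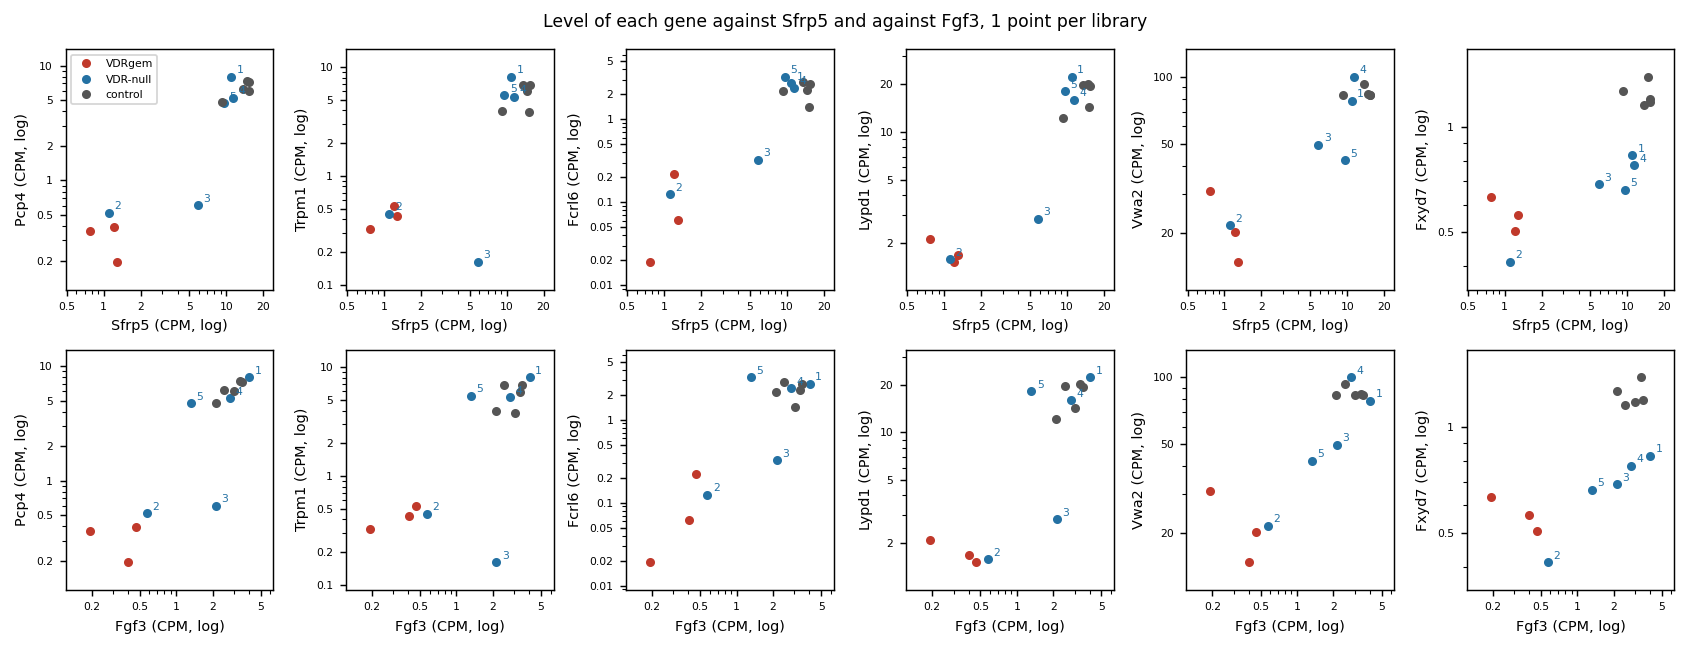
Level of each of the 6 genes (vertical axes) against Sfrp5 (upper row) and Fgf3 (lower row), in CPM on log axes, 1 point per library with VDR-null libraries numbered. VDR-null 3, at 5.82 CPM of Sfrp5 and 2.14 CPM of Fgf3, lies low for Pcp4, Trpm1, Fcrl6 and Lypd1, and Vwa2 descends with Fgf3 through VDR-null 3, 5 and 2.

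Within VDR-null and control, with a mean per group and VDRgem left out, the slope of a gene's log2 CPM on that of Sfrp5 passed limma's test, adjusted over all genes, for Lypd1 (1.09, SE 0.18, adjusted p = 0.0167), Vwa2 (0.52, SE 0.09, adjusted p = 0.0264) and Fcrl6 (1.21, SE 0.22, adjusted p = 0.0284). Pcp4 (1.05, adjusted p = 0.0571), Trpm1 (1.14, adjusted p = 0.318) and Fxyd7 (0.24, adjusted p = 0.456) did not pass. A positive slope was called for 0.763% of the 17836 other genes. On Fgf3 none of the 6 passed, beside 0.00561% of all genes, and the smallest p was that of Vwa2, with a slope of 0.70 (SE 0.11, limma, adjusted p = 0.12), which was 0.30 (SE 0.27, adjusted p = 0.901) without VDR-null 2 and 5, the libraries farthest from the median of Fgf3. All 3 calls on Sfrp5 rested on VDR-null 2 and 3, the libraries farthest from the median of Sfrp5: without them the slopes were 0.68 for Lypd1, 0.42 for Vwa2 and -0.21 for Fcrl6, each with an adjusted p of 0.999.

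The 10 VDR-null and control libraries fell into separate clusters, so no correlation of a gene with a marker is given over all of them. The 2 libraries farthest from the median were taken out (VDR-null 2 and 3 for Sfrp5, VDR-null 2 and 5 for Fgf3). Over the 8 libraries left, 12 correlations were computed with VDR-null and control pooled, without a mean per group. Differences between these groups thus enter them. None passed after Benjamini-Hochberg adjustment of exact permutation p-values. The closest was Pcp4 with Fgf3, with Pearson r = 0.65 (exact p = 0.0227, adjusted 0.19) and Spearman rho = 0.88 (exact p = 0.00724, adjusted 0.0869). Lypd1 with Fgf3 had r = 0.67 (exact p = 0.0316, adjusted 0.19) and rho = 0.76 (exact p = 0.0368, adjusted 0.221). The Fgf3 set kept VDR-null 3. Without VDR-null 2 and 3 instead, Lypd1 with Fgf3 had r = 0.36 and rho = 0.6. Pcp4 with Fgf3 then had r = 0.86 and rho = 0.9. No permutation p was computed for that set.

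The genes whose pattern over these 10 libraries was most like the mean of the 6 were Tac1, Mycn, Btbd11, Rhof, Dlx1as, Tcf7, Krt18, Mpped1, Nsl1 and Cdca7, with Pearson r between 0.965 and 0.987. This r served only to rank likeness, has no test, and spans the separate clusters of libraries, VDR-null 2 and 3 being far from the rest. Tac1 encodes the precursor of substance P, Mycn a proliferation-linked transcription factor, Tcf7 a transcription factor of Wnt signalling and Krt18 a keratin of simple epithelium. Their levels in VDRgem had no part in that ranking, although the controls did. The ranking followed 6 genes chosen as low in VDRgem against the same controls. The count of falls among the 10 is therefore a description and no test of enrichment. In VDRgem 8 of the 10 fell by edgeR's adjusted p, where 3.82% of all genes did, with Dlx1as at -2.58 (adjusted p = 0.0151), Krt18 at -2.44 (adjusted p = 0.029), Mycn at -2.27 (adjusted p = 0.00986) and Mpped1 at -2.22 (adjusted p = 0.0142). The other falls were Nsl1 (-1.33), Cdca7 (-1.2), Tcf7 (-1.03) and Rhof (-0.99). Tac1, at -1.99 (adjusted p = 0.178), and Btbd11, at 0.09 (adjusted p = 0.821), did not pass. Of 22 other settings the falls of Krt18 and Rhof held in 15 and 13, and each of the other 6 in 20. Dlx1as lies antisense to Dlx1, and since the strand setting of the counting is not given, reads of the pair may not be separated.

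A gene beside Fcrl6 shared part of its pattern. Slamf8, a surface receptor of the SLAM family known from macrophages, starts 12.0 kb from Fcrl6 on the same strand (chr1:172581758-172590568). It had 0.115, 0.11 and 0.0732 CPM in VDRgem, 0.645, 0.0717, 0.0404, 0.252 and 0.84 CPM in VDR-null, and 0.645, 0.473, 0.423, 0.632 and 0.788 CPM in controls. Every VDRgem library and VDR-null 2, 3 and 4 lay below every control, with 1 to 6 reads each except VDR-null 4, with 13. Fcrl6 differed in VDR-null 4, where it had 2.39 CPM and lay among its controls. In VDRgem it fell, with a log2 ratio to control of -2.59 (SE 0.74; edgeR, adjusted p = 0.0449), a call that held in 10 of 21 other settings. The fold change for VDR-null over control was -0.64 (SE 0.54, adjusted p = 0.504).

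Of the 17 protein-coding genes that start within 100 kb of a member, 15 were tested. In VDRgem 2 fell, Slamf8 and the phosphatase gene Dusp23 (-0.54, SE 0.10, adjusted p = 0.0111). Among those that rose were Vsig8 (3.74, adjusted p = 0.0153) and Fxyd5 (0.64, adjusted p = 0.0478). Vsig8 had 19.9, 4.16 and 0.598 CPM in VDRgem 1 to 3, while controls had 0.378 to 1.05 CPM, highest in the libraries richest in keratinocyte markers, whose part in the rise was not tested. Fxyd1, Fxyd3, Lgi4 and Hpn, which flank Fxyd7, did not pass, with fold changes of 0.07 to 0.32. In VDR-null none of the 15 passed in edgeR, where 6 had an unadjusted p under 0.05, and 3 passed in DESeq2. Without VDRgem 1 none of the 15 was called in VDRgem.

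Of 64 tested relatives and known partners of the 6 genes, edgeR called 0 lower and 8 higher in VDRgem, against that background of 3.82% lower and 4.8% higher. No Trpm family member (0 of 6), nicotinic receptor subunit (0 of 8), sodium pump subunit (0 of 6), Fc receptor relative (0 of 6) or calmodulin gene or calmodulin-binding relative (0 of 6) was called in edgeR, and the median log2 fold changes of these lists were 0.15, 0.47, 0.34, 0.19 and -0.04, beside 0.001 over all genes. Among the 64, 5 were lower at an unadjusted p under 0.05, DESeq2 called 3 lower, and without VDR-null 2 and 3 edgeR called 3 lower.

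Part of the Ly6 family rose in VDRgem. Of 12 tested relatives of Lypd1 5 rose: Ly6g6c (5.21, SE 1.16, adjusted p = 0.0188), Lypd5 (4.63, SE 1.21, adjusted p = 0.0321), Lypd3 (3.88, SE 0.76, adjusted p = 0.0121), Lypd2 (1.97, SE 0.57, adjusted p = 0.0478) and Lynx1 (0.79, SE 0.14, adjusted p = 0.0106). Lypd3 is known from stratified epithelium and Lynx1 as a modulator of nicotinic receptors. The summed level of the list was 532 CPM in VDRgem 1, 233 CPM in VDRgem 2 and 176 CPM in VDRgem 3, while controls had 137 to 162 CPM, in the order of the keratinocyte markers, whose part in the rises was not tested. Without VDRgem 1 none of the 64 relatives and partners was called. The remaining rises were Vwa1 (0.84, adjusted p = 0.0321) and Matn2 (0.65, adjusted p = 0.00982), matrix proteins with von Willebrand A domains, and Fxyd5.

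In VDR-null, 3 of the 64 were called. Nrgn, a neuronal calmodulin-binding protein of the IQ-motif kind like Pcp4, fell (-0.99, SE 0.20, adjusted p = 0.0385), as did Matn4 (-0.51, SE 0.10, adjusted p = 0.0398), and the nicotinic subunit Chrna5 rose (0.60, SE 0.14, adjusted p = 0.0486). In VDRgem their fold changes were 0.01, -0.17 and 0.48, none called. Without VDR-null 2 and 3 none of the 64 was called in VDR-null, and without VDRgem 1 there were 6.

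**Figure D4:**
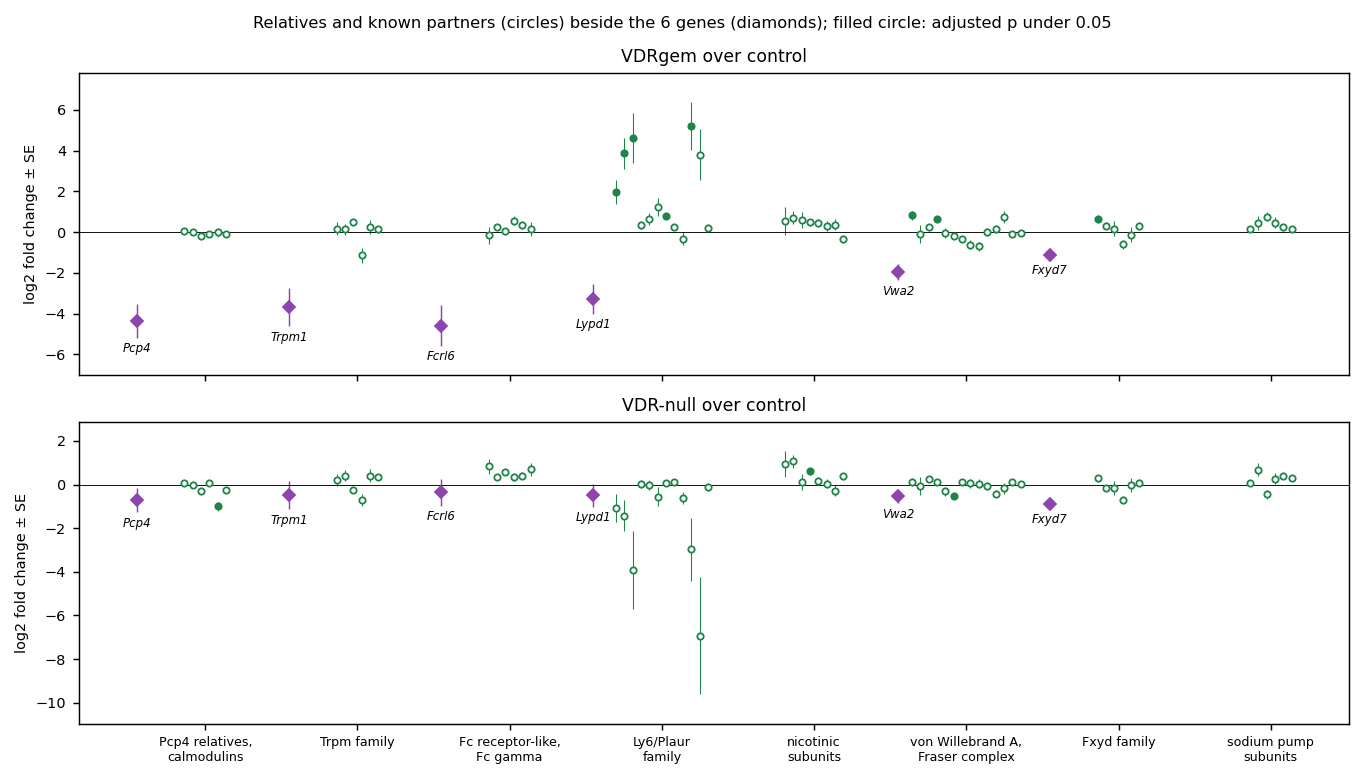
Log2 fold changes (points) with SE (bars) of relatives and partners, as circles, beside the 6 genes, as diamonds, for VDRgem over control (upper) and VDR-null over control (lower). Filled circles passed edgeR's adjusted p of 0.05; in VDRgem the diamonds lie below 0 and 8 circles are filled, all above 0.

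Genes of the apical end, the markers included, were partly low in VDRgem. Over all tested genes, 3.82% were called lower there and 4.8% higher. Of 16 apical epithelial genes 5 fell in edgeR, including Sfrp5, Foxi3 (-2.89, adjusted p = 0.0305), Shh (-2.46, adjusted p = 0.023), Etv4 (-1.74, adjusted p = 0.0151) and Etv5 (-0.84, adjusted p = 0.00982). The stem cell factor Sox2 rose (1.38, edgeR, adjusted p = 0.0401), with 1.14 to 5.93 CPM in VDRgem and 0.968 to 1.33 CPM in controls. No apical epithelial gene was called higher without VDRgem 1, or without VDR-null 2 and 3. Of 15 apical mesenchyme genes 7 fell, Fgf3 and Fgf10 (-1.88, adjusted p = 0.0287) among them, and Trps1 rose. All 16 cell-cycle genes fell, with a median of -1.02, and their summed level was 430 to 507 CPM in VDRgem, 478 and 629 CPM in VDR-null 2 and 3, 817 to 1070 CPM in the other VDR-null libraries and 754 to 1000 CPM in controls. Cell-cycle message was thus low in the same 5 libraries as Pcp4, Trpm1, Fcrl6 and Lypd1, and its part in their levels was not tested. In VDR-null no gene of these 3 lists was called in edgeR, where 10 of 47 had an unadjusted p under 0.05 and DESeq2 called 4. Without VDRgem 1 the count called lower in VDRgem was 1 for the apical epithelium, 0 for the apical mesenchyme and 0 for the cell cycle.

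Melanocytes are known for Trpm1 and lymphocytes for Fcrl6. Of the melanocyte markers, Tyr and Mlana had at most 6 reads in any library, and the 8 markers summed to 13.7 to 17.7 CPM in VDRgem, 12.8 to 15.8 CPM in VDR-null and 10.4 to 15.3 CPM in controls. Of 12 lymphocyte markers only 3 passed the filter, and the 12 summed to 0.682 to 1.27 CPM in VDRgem, 0.68 to 1.02 CPM in VDR-null and 0.613 to 1.04 CPM in controls. The part of these cells in the levels of Trpm1 and Fcrl6 was not tested. Of 9 neuron markers Stmn2 rose (1.13, adjusted p = 0.0076) and Tubb3 fell (-0.96, adjusted p = 0.029) in VDRgem. In VDR-null edgeR and DESeq2 called none of the 9, of which 3 had an unadjusted p under 0.05. The sum over the odontoblast markers was 175000 to 192000 CPM in VDRgem and 103000 to 158000 CPM in controls with none of 9 called in edgeR and 3 in DESeq2, and of 9 ameloblast genes Sp6 alone was called (-0.53, adjusted p = 0.021). Of 11 tested keratinocyte markers 10 rose in VDRgem, and of 10 general epithelial genes Krt5, Krt14 and Krt15 rose. Skeletal muscle markers summed to 265, 50.2 and 29.8 CPM in VDRgem 1 to 3, 668 CPM in VDR-null 3, 4.13 to 64.8 CPM in the other VDR-null libraries and 6.97 to 28.2 CPM in controls, and of 9 tested Myh3 rose in VDRgem (5.63, adjusted p = 0.0485).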

How the data were processed

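RNA was measured in 13 libraries. Libraries were stranded and poly-A selected, per the labels' protocols. The submitters' processing notes list HTSeq 0.6.1p1, STAR 2.5.3a, bcl2fastq 2.20.0.422 and the build mm10 behind the deposited counts. The strand setting, the counting mode and the annotation release are not given in the sources. Symbols and coordinates came from GENCODE M21 (GRCm38), which gave 34618 symbols. No library was a copy (chi-square over degrees of freedom at least 10.8 for any pair). Totals limit precision to counting error in genes with few reads.

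Fold changes came from edgeR 4.0.16 (R 4.3.3; TMM, filterByExpr with a minimum count of 10, all 13 libraries, quasi-likelihood test, Benjamini-Hochberg over 17837 genes, adjusted p under 0.05 called). Slopes came from limma 3.58.1 on log2 CPM (prior count 2). The 6 genes and all lists were chosen with earlier results of these data known. Genes named were the 6, both markers, Vdr, the 10 most like them with at least 1 CPM, called list genes where 5 or fewer were called and otherwise up to 3, and neighbours within 100 kb, of which 1 is not reported here. Alternatives were other scalings and filters, DESeq2 1.42.0, limma-voom, fewer groups, a prior count of 0.5, slopes without a group term, and left-out libraries. Scripts were tested on simulated counts. Intervals and floors cover counting error only.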

Additional observations from a re-analysis of the deposited data

Results flagged for a closer look

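Vwa2 in control 5, at 93.4 CPM, stood apart from the other 4 controls, which lay between 83 and 83.8 CPM. Its gap to the nearest control was 0.919 of the group's range, above the 95% critical value of 0.71 for 5 samples. Chance passes that value in about 1 of 20 groups, and 16 groups of 5 were examined. The cause was not tested, and without control 5 every reported direction of Vwa2 held.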

How the results depend on the processing

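No paired analysis was possible because the labels give no replicate numbers that groups share. Every fold change of the 6 genes, Fgf3 and Sfrp5 in VDRgem stayed below 0 in each setting, as the choice of the 6 favoured. There, Pcp4 was at -5.02 and Vwa2 at -2.54 without VDRgem 1 and 2, and Fxyd7 at -1.29 with library totals alone, a scaling that moved the median of all genes to -0.168; leaving out single libraries gave -5.63 to -4.16 for Fcrl6. Genes called in VDRgem numbered 2307 in DESeq2, 981 in limma-voom, 5 without VDRgem 1 and 2, and 66 (without VDRgem 1) to 2021 over single libraries, and library totals moved the calls to 589 higher and 1576 lower. In VDR-null they numbered 1657 in DESeq2, 423 with a mean of at least 1 CPM, 703 with only the compared groups, 676 without VDRgem 1 and 2, 1 without VDR-null 2 and 3, and 6 to 685 over single libraries. Without VDR-null 2 and 3, Trpm1 (0.20), Fcrl6 (0.29) and Lypd1 (0.13) reversed in VDR-null. Fxyd7 missed the threshold there at -0.86 with library totals alone, -0.88 with no filter and -0.70 without VDR-null 2 and 3, and its single-library range was -0.97 to -0.75, missing in 9 of 13; under a mean of at least 1 CPM it could not be fitted. The causes were not tested.

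The slope on Sfrp5 passed for Pcp4 at 1.08 with library totals alone and 1.11 with no group term. It turned to -0.21 for Fcrl6 and missed for Lypd1 (0.68) and Vwa2 (0.42) without VDR-null 2 and 3, which were also the farthest libraries; for Vwa2 it was 0.45 and missed over all 13 libraries. On Fgf3, Vwa2 passed at 0.72 with library totals alone and 0.77 with no group term, but was 0.30 without the 2 libraries farthest from the median, where the slopes of Pcp4 (2.4) and Trpm1 (3.25) were steeper and none of the 6 passed. That setting kept VDR-null 3. Without VDR-null 2 and 3 instead, the slopes on Fgf3 were shallower than in the main fit. They were 0.5 for Pcp4, 0.36 for Trpm1, 0.25 for Lypd1 and 0.49 for Vwa2, Fcrl6 turned to -0.17, and none passed. Over single libraries the slopes on Sfrp5 ran from 0.93 to 2.46 for Pcp4, 0.98 to 3.6 for Trpm1, 1.12 to 1.89 for Fcrl6, 1.0 to 2.1 for Lypd1, 0.44 to 0.59 for Vwa2 and 0.1 to 0.26 for Fxyd7; on Fgf3 they ran from 0.78 to 1.3 for Pcp4 and 0.53 to 0.78 for Vwa2.

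Of the relatives and partners, 14 were called in VDRgem in DESeq2, 3 in limma-voom, 14 with only the compared groups, 0 without VDRgem 1 and 2, and 0 to 11 over single libraries. In VDR-null these numbers were 9 in DESeq2, 5 with only the compared groups, 7 without VDRgem 1 and 2, 0 without VDR-null 2 and 3, and 0 to 6 over single libraries. Of the neighbours, 2 were called in VDRgem in limma-voom, 0 without VDRgem 1 and 2, and 0 to 5 over single libraries. In VDR-null they were 1 with library totals alone, 3 in DESeq2, 1 with a mean of at least 1 CPM, 3 with only the compared groups, 3 without VDRgem 1 and 2, and 0 to 2 over single libraries. Fcrl6 and Slamf8, with 1 to 10 reads in the low libraries, are limited by depth.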
